A study of Mus musculus with 24 samples.

Results

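Connexin genes encode the subunits of gap junctions, and 5 of them, Gja1, Gja4, Gjb1, Gjb2 and Gjb5, were followed here across all 8 groups of a study of the progesterone response of the mouse uterus. They were measured by the probe sets whose platform annotation named only one of these genes, which gave 6 of the 12422 probe sets tested, for 5 of the 8251 genes named alone by a probe set: 2 for Gja1 (100064_f_at and 100065_r_at), and 1 each for Gja4 (104729_at), Gjb1 (93771_at), Gjb2 (98423_at) and Gjb5 (104016_at). The samples were whole uteri of wild-type mice and of progesterone receptor knockout (PRKO) mice, a line without functional progesterone receptor in any tissue, and the labels name no strain. Every mouse, controls included, had been ovariectomized at 6 weeks of age and was injected from 2 weeks later, so ovarian hormones were low in all groups and the steroid given was progesterone (P4) at 1 mg per mouse in sesame oil, or sesame oil alone as vehicle. Uteri were taken 4 h after a single injection, or 4 h after the last of 4 injections spaced 12 h apart, a schedule labelled 40 h. The 8 groups were therefore wild type with vehicle or P4 and PRKO with vehicle or P4, each at 4 h and at 40 h, with 3 arrays per group and 24 arrays in all. Each RNA pool came from 5 mice of a genotype and treatment, and the labels do not say that the 3 arrays of a group held separate pools, so errors and p-values measure the spread between arrays, which may be technical.

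Connexins assemble into a ring-shaped hemichannel in the cell membrane, and 2 hemichannels of touching cells dock into a gap junction channel that passes ions and small metabolites. Gja1 encodes the main connexin of uterine smooth muscle and stroma, Gja4 a connexin of vascular endothelium and of the oocyte, Gjb1 the main connexin of hepatocytes, Gjb2 a connexin of many epithelia, and Gjb5 a connexin of skin and of the placental trophoblast. In rodents, uterine Gjb2 and Gja1 are known as steroid-responsive genes, and Gjb2 is known to appear in the epithelium around the time of implantation.

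The promoters of Gjb2 and Gja1 are shown because they belong to the connexin that differed most between groups and to the main connexin of uterine smooth muscle, and the promoter of Efnb2 because the pattern of this gene over the groups was closest to that of Gjb2. Each is the 250 bases before the RefSeq start in GRCm38.p6, written 5′ to 3′ on the strand of the gene. Gjb2 lies at chr14:57104703-57104952 on the minus strand, Gja1 at chr10:56377050-56377299 on the plus strand and Efnb2 at chr8:8661243-8661492 on the minus strand. Capitals mark matches, on either strand, to 5 short motifs: the steroid receptor half-site TGTNCT, the estrogen receptor half-site TGACC, the AP-1 site TGANTCA, the Sp1 box GGGCGG and the TATA-like box TATAA.
Gjb2: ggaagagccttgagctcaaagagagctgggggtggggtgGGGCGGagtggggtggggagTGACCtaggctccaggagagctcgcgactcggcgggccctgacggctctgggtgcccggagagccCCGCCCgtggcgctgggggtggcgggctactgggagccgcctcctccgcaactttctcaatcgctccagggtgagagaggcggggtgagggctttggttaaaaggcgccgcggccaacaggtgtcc
Gja1: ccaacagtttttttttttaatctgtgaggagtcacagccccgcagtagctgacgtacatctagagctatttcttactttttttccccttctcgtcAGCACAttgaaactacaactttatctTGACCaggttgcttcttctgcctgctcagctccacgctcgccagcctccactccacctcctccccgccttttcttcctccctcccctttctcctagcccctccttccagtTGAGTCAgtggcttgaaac
Efnb2: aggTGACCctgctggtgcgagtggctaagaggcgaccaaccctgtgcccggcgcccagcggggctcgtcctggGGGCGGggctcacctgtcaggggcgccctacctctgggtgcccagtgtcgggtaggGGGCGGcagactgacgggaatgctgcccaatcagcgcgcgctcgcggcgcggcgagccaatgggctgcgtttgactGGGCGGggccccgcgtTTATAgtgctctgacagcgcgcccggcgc
The Gjb2 window held GGGCGG at 211 to 206 bases before the start and, on the opposite strand, at 126 to 121, with TGACC at 191 to 187. It held no TGTNCT. The Gja1 window held TGTNCT on the opposite strand at 155 to 150 bases before the start, TGACC at 129 to 125 and TGANTCA at 19 to 13. The Efnb2 window held TGACC, 3 copies of GGGCGG and a TATAA on the opposite strand, and like Gjb2 no TGTNCT. Such short motifs are common. Of 32851 windows of this length in the same table, 44.7% held TGTNCT, 35.2% TGACC, 32.7% GGGCGG, 22.8% TATAA and 6.75% TGANTCA, so a match is a description of the letters and no match says nothing of the factor. No matches overlapped in these windows.

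Signal is the brightness of a probe set on a linear scale after each array was scaled to a common mean. Array medians lay between 323.2 and 342.6 as deposited, so the arrays were already near a common level. Probe sets differ in their response, so levels are compared between groups for 1 probe set and never between genes. Markers of uterine cell types were present, with Acta2 of smooth muscle at a mean signal of 8192, Dcn of stroma at 8646 and Krt19 of epithelium at 1706. Adipose markers were bright too, with Lpl at 3412 and Adipoq at 2423. Other uterine markers read low, such as Vim of stroma at 167.1 and Epcam of epithelium at 249.4. The targeted gene Pgr was dim in every group, and passed the test between genotypes only under P4 at 40 h (wild type 156.3 ± 12.5, PRKO 116.3 ± 8.88, SD, n = 3). The ratio of 3′ to 5′ Gapdh signal, a sign of RNA integrity, was 1.23 to 1.86 on 22 arrays, and 3.67 and 3.25 on the second arrays of the wild-type vehicle and P4 groups at 4 h.

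Gjb2 was the connexin whose signal differed between groups. In wild-type uteri P4 lowered it to 46.0% of the vehicle mean at 4 h and to 50.8% at 40 h. In PRKO uteri no P4 change of Gjb2 passed the test. The direct test of whether the P4 effect differed between genotypes did not pass at either time. Under P4 the Gjb2 signal was 2.72-fold higher in PRKO than in wild-type uteri at 4 h and 2.27-fold higher at 40 h. With vehicle the PRKO mean was also higher, 1.53-fold at 4 h and 1.36-fold at 40 h, but these differences did not pass. The Gjb2 group means spanned 3.32-fold, a range on the log2 scale of 1.56 at percentile 99.6 of all tested probe sets. The other 5 probe sets spanned 1.15-fold to 1.37-fold on the linear scale.

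At 4 h the Gjb2 signal on the wild-type vehicle arrays was 417.8, 505.9 and 400.5, and on the wild-type P4 arrays 200.5, 218 and 190.7. In vehicle uteri the mean was 441.4 ± 56.5 and under P4 203.1 ± 13.8 (SD, n = 3), and the lowest vehicle array lay well above the highest P4 array. The fitted change on the log2 scale of signal plus 32 was −1.0 ± 0.17 (SE; 95% interval −1.36 to −0.65; limma adjusted p = 0.00339). Of all probe sets, 0.708% passed this test, and Gjb2 was the 1 of 6 connexin probe sets that did. Without the pair of arrays with high Gapdh ratios, the second of each group, the change was −0.95 ± 0.21 and no longer passed (adjusted p = 0.0799).

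At 40 h the Gjb2 signal on the wild-type vehicle arrays was 324.9, 415 and 555.2, and on the P4 arrays 224.2, 212.4 and 221.7. The vehicle arrays were widely spread (431.7 ± 116, SD, n = 3) and the P4 arrays were close together (219.4 ± 6.20), again with no overlap. The log2 change was −0.85 ± 0.17 (95% interval −1.21 to −0.50; adjusted p = 0.00962), in a comparison where 1.54% of probe sets passed and again 1 of the 6 connexin probe sets. Without the third vehicle array it was −0.67 ± 0.17 (adjusted p = 0.0788), and without the second P4 array −0.83 ± 0.20 (adjusted p = 0.0515). The Gapdh ratio moved with this comparison, at 1.48 to 1.60 on the vehicle and 1.23 to 1.30 on the P4 arrays, and with the ratio as a covariate the Gjb2 change was −0.80 ± 0.17 (adjusted p = 0.0104). The fall at 40 h did not differ detectably from that at 4 h, with a difference of 0.15 ± 0.24 (95% interval −0.35 to 0.65; adjusted p = 1), in a test that 0.475% of probe sets passed.

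**Figure D1:**
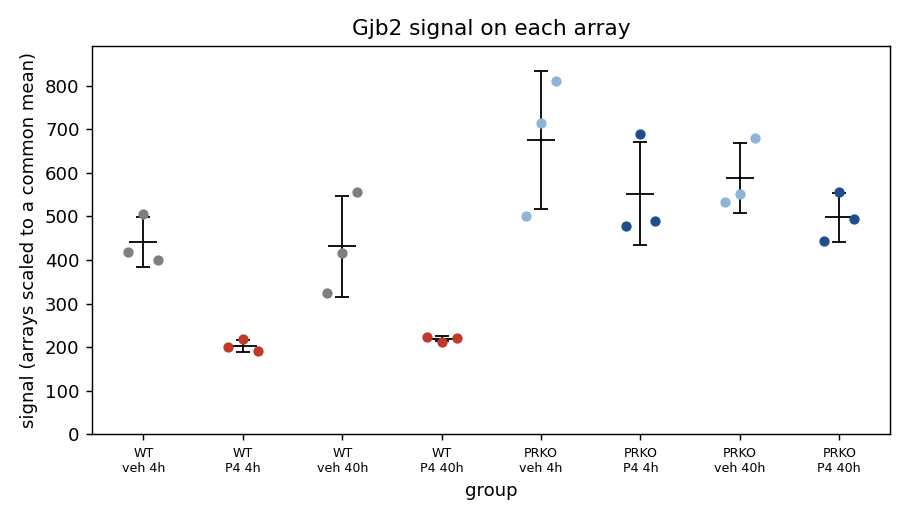
Gjb2 signal (linear scale, arrays scaled to a common mean) on each of the 24 arrays, by group (WT, wild type; veh, vehicle); points are arrays, the horizontal bar is the group mean and the error bar ± 1 SD (n = 3). The 6 wild-type P4 arrays lie between 190.7 and 224.2, below every other array, of which the lowest is at 324.9.

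In PRKO uteri at 4 h the Gjb2 signal was 500.4, 713.4 and 810.2 with vehicle and 479.2, 689.1 and 489 with P4. The groups overlapped and the log2 difference, −0.27 ± 0.17 (95% interval −0.62 to 0.09; adjusted p = 1), did not pass. At 40 h it was 533.8, 551.3 and 680.3 with vehicle and 444.4, 555.6 and 494.5 with P4, also overlapping, with a difference of −0.22 ± 0.17 (95% interval −0.58 to 0.13; adjusted p = 0.721). Over all probe sets limma called 0 (0%) for P4 in PRKO uteri at either time, while 237 at 4 h and 831 at 40 h had an unadjusted p under 0.05. Leaving out 1 array moved the Gjb2 difference at 4 h between −0.13, without the third vehicle array, and −0.46, without the first, with −0.43 without the second P4 array. At 40 h it moved between −0.12, without the third vehicle array, and −0.30, without the second P4 array. No such fit passed. The intervals for Gjb2 still allow a decrease in PRKO uteri of more than 0.5 on the log2 scale.

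The difference between the genotypes in the P4 effect was tested directly. For Gjb2 the wild-type effect minus the PRKO effect was −0.74 ± 0.24 at 4 h (95% interval −1.24 to −0.24; unadjusted p = 0.00588, limma adjusted p = 0.688). At 40 h it was −0.63 ± 0.24 (95% interval −1.13 to −0.13; unadjusted p = 0.0164, limma adjusted p = 0.476). Neither passed after adjustment over all probe sets, of which 0.0966% passed at 4 h and 0.105% at 40 h. That the P4 effect on Gjb2 differed between genotypes was therefore not shown at the threshold, although wild-type values passed and PRKO values did not.

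Averaging both times, a fit chosen after the values had been seen, narrowed these estimates. The P4 effect on Gjb2 was then −0.93 ± 0.12 in wild type (95% interval −1.18 to −0.68; limma adjusted p = 0.000153; 1.31% of probe sets passed). In PRKO it was −0.25 ± 0.12 (95% interval −0.50 to 0.00; limma adjusted p = 0.944; 0% passed). Their difference was −0.68 ± 0.17 (95% interval −1.04 to −0.33; unadjusted p = 0.000632, limma adjusted p = 0.138; 0.225% passed), which again missed the threshold.

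**Figure D2:**
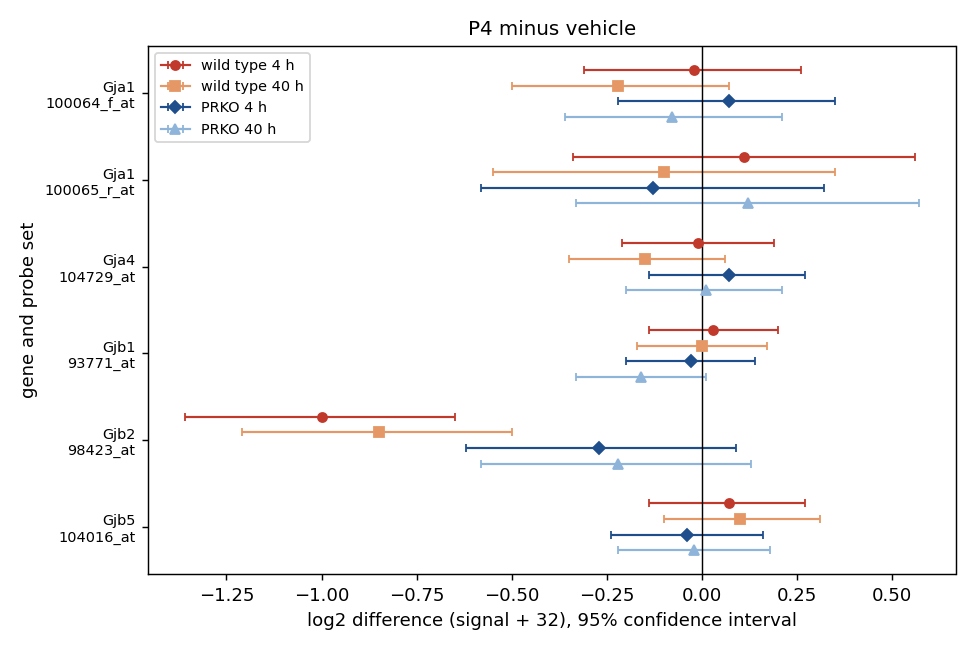
Fitted difference P4 minus vehicle on the log2 scale of signal plus 32 (horizontal axis) for the 6 connexin probe sets (vertical axis), in wild-type and PRKO uteri at 4 h and 40 h; symbols are estimates and bars their 95% intervals, each from 3 arrays against 3. The intervals of Gjb2 in wild type exclude 0 (−1.0 at 4 h and −0.85 at 40 h), and every other interval includes 0.

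With P4 in both genotypes, Gjb2 was higher in PRKO uteri. The log2 difference was 1.30 ± 0.17 at 4 h (95% interval 0.94 to 1.65; adjusted p = 0.000122), where 1.22% of probe sets passed. At 40 h it was 1.07 ± 0.17 (95% interval 0.72 to 1.43; adjusted p = 0.00107), where 2.59% passed. The lowest PRKO P4 array at either time, 444.4, lay above the highest wild-type P4 array, 224.2, and Gjb2 was the 1 connexin of the 6 probe sets to pass at each time. These comparisons use the same wild-type P4 arrays as the P4 effects above and are not independent of them. Both passed under each alternative run, with values from 0.99 to 1.38 at 4 h and from 0.84 to 1.18 at 40 h.

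In vehicle uteri the Gjb2 mean was also higher in PRKO, at 674.7 ± 159 against 441.4 ± 56.5 at 4 h and 588.5 ± 80.0 against 431.7 ± 116 at 40 h (SD, n = 3). The arrays of the genotypes overlapped at both times. The log2 difference was 0.56 ± 0.17 at 4 h (95% interval 0.20 to 0.91; limma adjusted p = 0.424) and 0.44 ± 0.17 at 40 h (95% interval 0.09 to 0.80; limma adjusted p = 1), and neither passed. Without the first wild-type array the difference at 40 h was 0.27, and without the third 0.63. With vehicle, 0.185% of probe sets differed between genotypes at 4 h and 0.0644% at 40 h. Averaged over both times the Gjb2 difference was 0.50 ± 0.12 with vehicle (unadjusted p = 0.00045, limma adjusted p = 0.0736; 0.443% of probe sets passed) and 1.18 ± 0.12 with P4 (limma adjusted p = 1.83e-06; 3.16% passed).

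Ordered by mean signal, Gjb2 ran from PRKO vehicle 4 h through PRKO vehicle 40 h, PRKO P4 4 h, PRKO P4 40 h, wild-type vehicle 4 h and wild-type vehicle 40 h down to wild-type P4 40 h and wild-type P4 4 h. The arrays of each group overlapped those of the next, except between wild-type vehicle 40 h and wild-type P4 40 h. In vehicle uteri no time difference of Gjb2 passed. At 40 h minus 4 h it was −0.05 ± 0.17 in wild type (95% interval −0.41 to 0.30; adjusted p = 0.923; 0.29% of probe sets passed) and −0.17 ± 0.17 in PRKO (95% interval −0.52 to 0.19; adjusted p = 0.761; limma called 0 of all probe sets, 0%, with 1375 at an unadjusted p under 0.05). Without the first PRKO vehicle array at 4 h the PRKO value was −0.36, and without the third −0.03. Without the first wild-type vehicle array at 40 h the wild-type value was 0.12, and without the third −0.24.

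**Figure D3:**
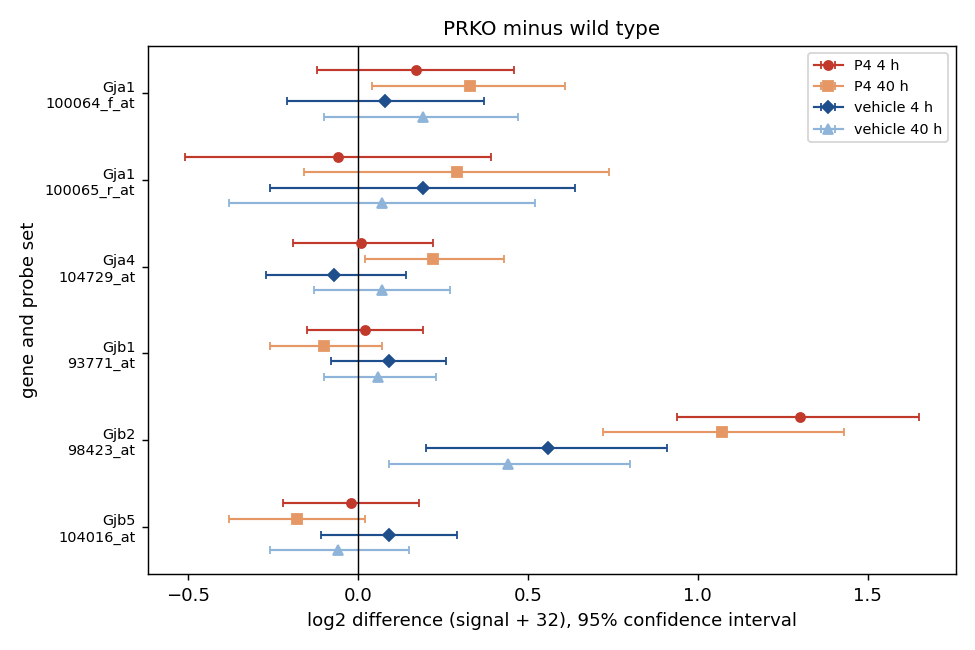
Fitted difference PRKO minus wild type on the log2 scale of signal plus 32 (horizontal axis) for the 6 connexin probe sets (vertical axis), under P4 and under vehicle at 4 h and 40 h; symbols are estimates and bars their 95% intervals, each from 3 arrays against 3. Gjb2 is highest under P4 (1.30 at 4 h and 1.07 at 40 h); its vehicle intervals also exclude 0, but those differences did not pass after adjustment over all probe sets.

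The epithelium score, the mean log2 signal of 13 marker genes, was lower under P4 in wild type, as Gjb2 was. Whole uterus was measured, so fewer epithelial cells and less Gjb2 RNA per cell cannot be told apart. The score was 9.41 to 9.55 on the wild-type vehicle arrays and 9.17 to 9.32 on the P4 arrays at 4 h. At 40 h it was 9.50 to 9.55 with vehicle and 9.25 to 9.36 with P4, again without overlap. Of the 13 markers, 1 fell under P4 in wild type at 4 h, the tetraspanin gene Tspan8 (−0.95 ± 0.17), and 2 fell at 40 h, Tspan8 (−0.93 ± 0.17) and the keratin gene Krt7 (−0.65 ± 0.12). These counts stand beside 0.708% of all probe sets passing at 4 h and 1.54% at 40 h. The median marker change was −0.16 at 4 h and −0.23 at 40 h, against medians over all probe sets of 0.0015 and 0.00081. Between genotypes under P4, 3 of the 13 were higher in PRKO at 4 h, Tspan8 (0.82 ± 0.17), the keratin gene Krt18 (0.49 ± 0.11) and the transcription factor gene Elf3 (0.47 ± 0.08), and 1 was lower, the claudin gene Cldn3 (−1.09 ± 0.19), with a median of 0.24 over the list. At 40 h, 2 were higher, Tspan8 (0.92 ± 0.17) and Krt7 (0.54 ± 0.12), and Cldn3 was lower (−0.95 ± 0.19), with a median of 0.15. Over all probe sets, 1.22% passed between genotypes under P4 at 4 h and 2.59% at 40 h. With vehicle at 40 h the score and Gjb2 went opposite ways. The PRKO arrays scored 9.29 to 9.40, below the 9.50 to 9.55 of wild type, while the Gjb2 mean was higher in PRKO. With vehicle at 4 h they went the same way, with a mean score of 9.52 in PRKO and 9.46 in wild type and overlapping arrays. In PRKO uteri the mean score was 9.52 with vehicle and 9.40 with P4 at 4 h, the direction of Gjb2. At 40 h it was 9.36 and 9.42, the opposite direction. The part of the epithelium in the Gjb2 values was not tested. The marker with the lowest mean signal was Spint2, at 116.5 and percentile 19.3 of all tested probe sets. Signal over background was not examined.

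With the epithelium score as a covariate, added after the values had been seen, the P4 change of Gjb2 in wild type was −0.56 ± 0.15 at 4 h (adjusted p = 0.0596) and −0.40 ± 0.15 at 40 h (adjusted p = 0.139), and neither passed. In PRKO uteri the P4 change was −0.02 ± 0.13 at 4 h and −0.34 ± 0.12 at 40 h in this fit, and neither passed. The difference of the P4 effects between genotypes was then −0.54 ± 0.17 at 4 h (adjusted p = 0.298) and −0.06 ± 0.21 at 40 h (adjusted p = 0.902). Under P4 the genotype difference still passed, at 0.99 ± 0.14 for 4 h (adjusted p = 0.000296) and 0.84 ± 0.13 for 40 h (adjusted p = 0.000777). With vehicle at 40 h it rose to 0.79 ± 0.14 and passed (adjusted p = 0.0239). The score itself moved with P4 in wild type, so this fit also takes out part of any treatment change that the markers share with Gjb2.

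**Figure D4:**
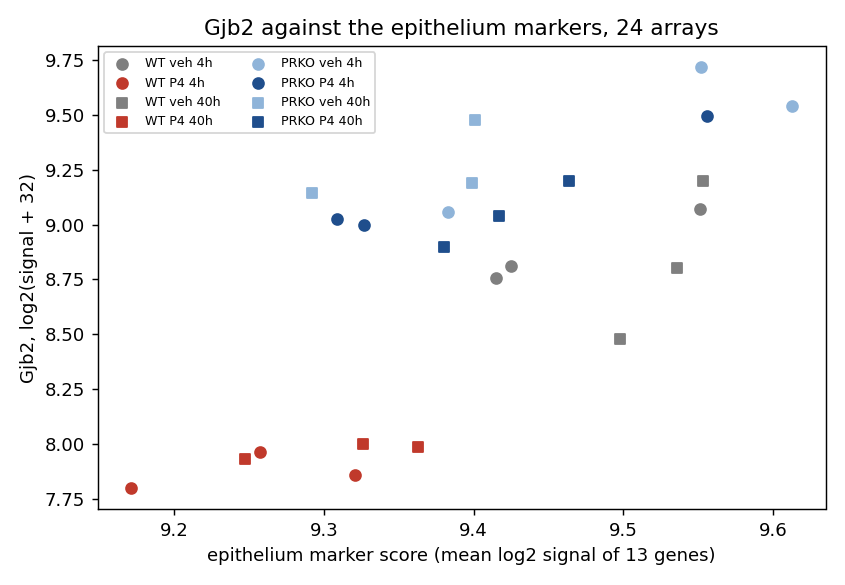
Gjb2 as log2 of signal plus 32 (vertical axis) against the epithelium score, the mean log2 signal of 13 marker genes (horizontal axis), with 1 point per array (24 arrays; circles 4 h, squares 40 h; colours as in the key). The 6 wild-type P4 arrays lie lowest on the Gjb2 axis with scores of 9.17 to 9.36, and read at most 8.001 for Gjb2, while the PRKO arrays with scores in that range read 8.998 or more.

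Gja1 had array signals of 1106 to 1813 on 100064_f_at and of 248.4 to 549.2 on 100065_r_at. The suffix f marks probes shared within a family of similar sequences and the suffix r a set for which some probe selection rules were dropped, so both are less specific than an ordinary set. Over the 8 group means the 2 sets correlated at r = 0.68, a description only. At 4 h P4 gave no change that passed in wild type, with −0.02 ± 0.14 on the first set and 0.11 ± 0.22 on the second.

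At 40 h the first Gja1 set read 1366, 1402 and 1348 in wild-type vehicle uteri and 1113, 1144 and 1280 with P4. The arrays did not overlap, but the log2 change of −0.22 ± 0.14 (95% interval −0.50 to 0.07; adjusted p = 0.604) did not pass. The PRKO P4 arrays at 40 h read 1436, 1454 and 1562, all above the wild-type P4 arrays, a difference of 0.33 ± 0.14 (95% interval 0.04 to 0.61; limma adjusted p = 0.177). This difference passed in 2 alternative fits, that of the 40 h arrays alone (adjusted p = 0.0399) and that with the replicate number as a block (adjusted p = 0.0466). The second set gave 0.29 ± 0.22 (adjusted p = 0.429), and its arrays overlapped.

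Gja4 read 403.5 to 516.9 in wild-type vehicle and 432.9 to 462.8 in wild-type P4 uteri at 4 h, a difference of −0.01 ± 0.10. Its lowest group was wild-type P4 at 40 h, with 345.8, 347.1 and 386, against 459.2, 349.1 and 402.6 with vehicle and 448.7, 426.3 and 400.2 in PRKO P4 uteri. The vehicle and P4 groups overlapped, whereas the genotypes under P4 did not. The P4 change in wild type was −0.15 ± 0.10 (adjusted p = 0.626) and the genotype difference under P4 0.22 ± 0.10 (95% interval 0.02 to 0.43; limma adjusted p = 0.19), and neither passed.

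The wild-type P4 uteri at 40 h, the lowest group for both Gja1 sets and for Gja4, also differed in marker scores for other cell types. Their adipose score was 8.62 to 9.38 against 9.97 to 10.27 with vehicle, the stroma score 11.35 to 11.44 against 10.86 to 11.11, and the smooth muscle score 11.93 to 12.00 against 11.61 to 11.71. The endothelium score, over 7 genes, was 9.36 to 9.50 against 9.50 to 9.64. In this comparison 1.54% of all probe sets passed. Of the 5 adipose genes 4 fell, Adipoq, Lpl, Cidec and Retn. Of the 8 stroma genes 3 rose, Col1a1, Col3a1 and Hoxa11, and of the 8 smooth muscle genes 0 passed. Of the 7 endothelium genes 1 fell, the claudin gene Cldn5 (−0.79 ± 0.18, limma adjusted p = 0.024). The part of these cell types in the Gja1 and Gja4 values was not tested.

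Gjb1 read 97.78 to 139.6 on all arrays, a signal low enough for the offset of 32 to compress its changes. Its P4 changes in wild type were 0.03 ± 0.08 at 4 h and 0.00 ± 0.08 at 40 h. In PRKO uteri at 40 h it read 119.5, 127.7 and 139.6 with vehicle and 117.1, 109.7 and 108.8 with P4, without overlap, and the difference of −0.16 ± 0.08 did not pass (adjusted p = 0.703).

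Gjb5 lay within 209.3 to 308.6 on all arrays. In wild-type uteri at 40 h it read 245, 256.4 and 250.9 with vehicle and 264.5, 268 and 283.4 with P4, which did not overlap. The difference of 0.10 ± 0.10 (adjusted p = 0.759) was of the opposite sign to that of Gjb2 and did not pass. Under P4 at 40 h the PRKO arrays read 235.3, 235.8 and 238.1, all below the wild-type arrays, with a difference of −0.18 ± 0.10 (limma adjusted p = 0.282).

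**Figure D5:**
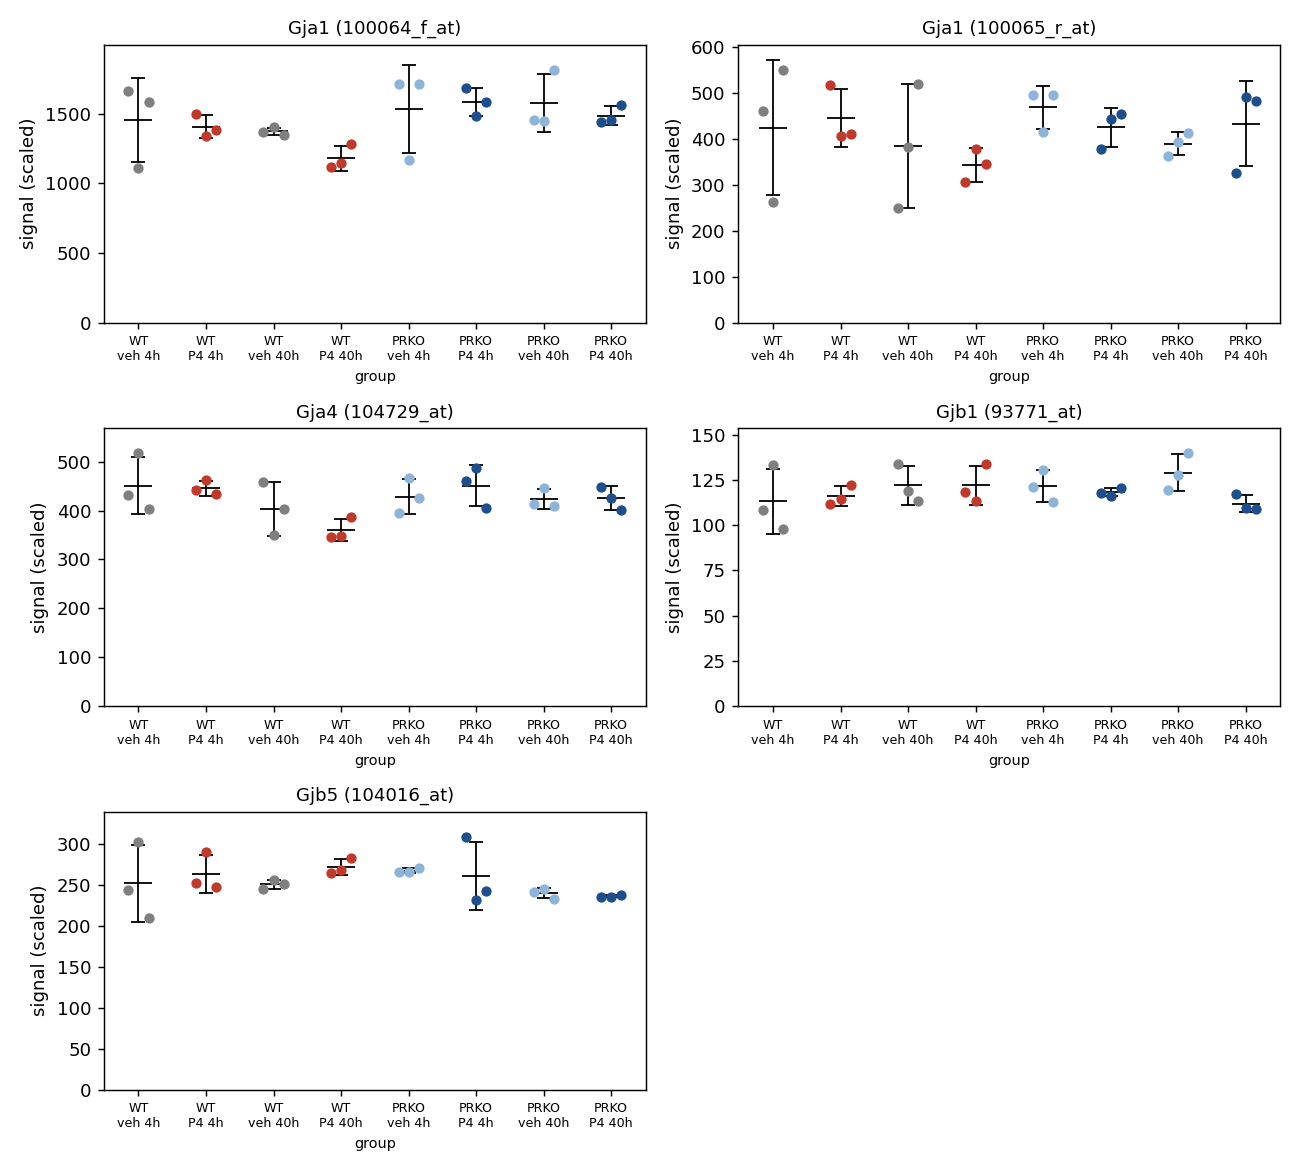
Signal (linear scale from 0, each panel with its own range) of the 5 connexin probe sets other than Gjb2 on each array, by group; points are arrays, the horizontal bar is the group mean and the error bar ± 1 SD (n = 3). Both Gja1 sets and Gja4 have their lowest mean in wild-type P4 uteri at 40 h (1179, 342.8 and 359.6), Gjb1 stays between 97.78 and 139.6, and Gjb5 between 209.3 and 308.6.

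Across the 13 comparisons limma called none of these 5 probe sets, and 2 of their 65 tests had an unadjusted p under 0.05, the genotype differences of Gja1 100064_f_at and of Gja4 under P4 at 40 h. That is 3.08% of their tests, against 8.46% over all probe sets in the same comparisons and 22.2% in the comparison that held both. Their P4 changes ran from −0.02 to 0.11 in wild type at 4 h, from −0.22 to 0.10 in wild type at 40 h, from −0.13 to 0.07 in PRKO at 4 h and from −0.16 to 0.12 in PRKO at 40 h. The standard errors of 0.08 to 0.22 still allow small changes in each. A fall as large as that of Gjb2 at 4 h lies outside the 95% interval of each of the 5 sets in that comparison. Arrays without overlap also occurred with vehicle alone. Gja1 100064_f_at and Gjb5 did not overlap between genotypes at 40 h, nor did Gja1 100065_r_at and Gjb5 between times in PRKO. The share of all probe sets without overlap is not given here, so such a separation is a description only.

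A further 6 connexin genes had 8 probe sets: Gja3, Gja5, Gja10, Gjb6 with 3, Gjc1 and Gjd2. Limma called none of them in the 13 comparisons (lowest adjusted p = 0.131), with 4 of 104 tests (3.85%, against 8.46% over all probe sets) at an unadjusted p under 0.05. Gja5, a connexin of arterial endothelium and heart, read 350.4 to 485.9 and gave P4 changes in wild type of 0.01 ± 0.10 at 4 h and 0.00 ± 0.10 at 40 h. Gjb6, which lies beside Gjb2 in the genome and forms mixed channels with it, gave −0.06 ± 0.10 and −0.02 ± 0.10 on its brightest set (207.5 to 300.5).

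Genes of other cell junctions and of connexin handling came from 3 lists. Over all probe sets, 0.708% passed for P4 in wild type at 4 h and 1.54% at 40 h. For PRKO against wild type under P4 the shares were 1.22% at 4 h and 2.59% at 40 h. Of 15 measured tight junction genes, P4 in wild type changed 0 at 4 h and 1 at 40 h, Cldn5. Between genotypes under P4, the 1 gene of this list to pass was Cldn3, given above among the epithelium markers, at each time. Of 18 adherens junction and desmosome genes P4 in wild type changed none, and PRKO exceeded wild type under P4 for 1 at each time, the desmosomal plaque gene Dsp at 4 h (0.90 ± 0.19) and the desmosomal cadherin gene Dsc2 at 40 h (0.84 ± 0.12). Of 14 connexin-binding proteins and kinases P4 in wild type changed none, and the protein kinase C gene Prkce was higher in PRKO under P4 at 40 h (0.89 ± 0.18). Medians of these lists under P4 in wild type lay between −0.08 and 0.02.

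A list of progesterone and estrogen responsive uterine genes served as a reference for the hormone response, and 23 of its 27 genes were measured. In wild type at 4 h, where 0.708% of all probe sets passed, 5 rose and 2 fell. The retinoic acid hydroxylase gene Cyp26a1 rose by 3.02 ± 0.16. The other risers were Il13ra2 (1.12 ± 0.17), Fst (0.94 ± 0.20), Gata2 (0.59 ± 0.11) and the hedgehog ligand gene Ihh (0.52 ± 0.11). The calcium-binding protein gene Calb1 (−1.45 ± 0.29) and the carbonic anhydrase gene Car2 (−0.97 ± 0.14) fell. At 40 h, where 1.54% passed, 4 rose, Spink1 (1.81 ± 0.17), Acod1 (1.44 ± 0.15), Lrp2 (1.11 ± 0.20) and Hoxa11 (0.66 ± 0.14). The 2 that fell were Car2 (−0.93 ± 0.14) and the inhibin subunit gene Inhbb (−0.88 ± 0.16). Car2, like Gjb2, was lower at both times and higher in PRKO under P4 (0.95 ± 0.14 at 4 h and 0.65 ± 0.14 at 40 h). In PRKO uteri limma called none of the 23 for P4 at either time, nor any other probe set (0%), with the counts at an unadjusted p given above. The median change of the list in wild type was −0.03 at 4 h and 0.26 at 40 h.

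The gene whose 8 group means were most like those of Gjb2 was Efnb2, which encodes the ephrin-B2 membrane ligand (r = 0.976 over 8 group means and 0.901 over 24 arrays, the first rank of 1002 probe sets compared by either measure). It was chosen for this likeness, so its values are a description with no test, and its r carries no p. At 4 h Efnb2 read 1534, 1272 and 972 in wild-type vehicle and 663.6, 682.9 and 626 in wild-type P4 uteri. At 40 h it read 976.2, 1052 and 1080 with vehicle and 728.7, 680.9 and 588.5 with P4. The PRKO arrays lay between 1159 and 1691 in the 4 PRKO groups, so that, as with Gjb2, the 6 wild-type P4 arrays were the lowest. The next genes were Ogt (r = 0.946 over group means but 0.359 over arrays), Fam107b (0.942 and 0.843) and both probe sets of Blnk (0.936 and 0.932 over group means, 0.874 and 0.878 over arrays).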

How the data were processed

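Whole mouse uterus RNA was hybridized to 24 Affymetrix arrays, and the labels sort these into 8 groups of 3. The values the authors deposited are linear signal intensity per probe set, made with MAS5 per the submitters' processing notes; no source used here gives its version or scaling, and detection calls were not used. Scaling factors of 0.954 to 1.03 then set the trimmed mean of every array (2% cut at each end) to 500, and log2 of signal plus 32 was analysed, which compresses differences of dim probe sets. Of 12488 probe sets 66 controls were left out and 12422 tested with no filter on dim signal. Genes were named from the platform annotation, where 10833 probe sets named 1 gene, 396 several and 1193 none.

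Group means of all 24 arrays were fitted with limma 3.58.1 in R 4.3.3 (moderated two-sided tests, intensity trend, 16 residual and 4.98 prior degrees of freedom). P values were adjusted by Benjamini-Hochberg over all tested probe sets in each of 13 comparisons, with a threshold of 0.05; rose, fell and passed refer to it. The number of arrays limits the precision. No label states a shared batch. Same-numbered arrays deviated together in the wild-type comparison at 4 h (correlations of 0.114 to 0.516, 3 pairs), where the second arrays of both groups had high Gapdh ratios. In every other comparison checked, not all pairs passed the threshold of 0.1, and the lowest correlation was −0.188. The data therefore do not establish a pairing, and the replicate block is given only as an alternative. Likeness to Gjb2 was Pearson's r over the 8 group means, among probe sets naming 1 gene with a mean signal of at least 200 and a range of group means of at least 0.5 (log2), and the 5 highest are named. For a list, the brightest probe set of a gene was used, and its called members are named where a result turns on them. The members, lists, comparisons and alternatives were chosen with earlier results of these data known. The test was tried on simulated data. Promoter windows and their motif matches came from a RefSeq table of GRCm38.p6, matched by symbol for all 5 genes. Probe positions were not used here.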

Additional observations from a re-analysis of the deposited data

How the results depend on the processing

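Of 1512 member values recomputed under alternatives, 1504 stayed on their side of the threshold, 5 called values were called no longer, 3 became called, and no called value changed sign. The number of connexin probe sets called for P4 in wild type was 0 instead of 1 at 4 h without both second arrays, 0 at both times with the epithelium score as a covariate, and 0 to 1 at 40 h when leaving out 1 array in turn; by construction the first and last use fewer arrays. It was 2 instead of 1 for PRKO against wild type under P4 at 40 h, with the 40 h arrays alone and with the replicate block, and 1 instead of 0 with vehicle at 40 h under the epithelium covariate; the cause was not tested. With the replicate block Gjb2 changed by −1.0 ± 0.14 under P4 in wild type at 4 h (adjusted p = 0.000663) and by −0.85 ± 0.14 at 40 h (adjusted p = 0.00167), and the block changed no member call other than that of Gja1. Leaving out each array in turn, the Gjb2 change at 4 h stayed within −1.07 to −0.91 and passed in 6 of 6 fits, and at 40 h within −1.03 to −0.67 and passed in 4 of 6. Signal over background was not examined, so the level at which dim Gjb1 would be measurable is unknown.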
